A study of Mus musculus with 12 samples.

Results

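The opioid peptide precursor genes are *Penk* (proenkephalin), *Pdyn* (prodynorphin), *Pnoc* (prepronociceptin), and *Pomc* (proopiomelanocortin). These 4 genes were taken by symbol, as the known precursors of the endogenous opioid peptides, out of 55418 genes counted in mouse brainstem (medulla and pons). The 12 libraries came from outbred CFW mice, a Swiss Webster stock, 1 mouse each without pooling, at postnatal day 15. Saline females and saline males (n = 3 each) had received saline s.c., and morphine females and morphine males (n = 3 each) had received morphine at 15 mg/kg s.c., 2 times daily from postnatal day 1 to 14. Tissue was taken 16 h after the last injection, so the morphine groups were measured in spontaneous withdrawal and not under acute drug. Treatments were mixed within litters, and all mice carried their native opioid genes. The text below names a library by its group and its label number, such as saline male 1.

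Opioid peptides are cut from larger precursor proteins inside dense-core vesicles, at pairs of basic residues, and are released by neurons to act on G protein-coupled receptors. Enkephalins from *Penk* act mainly on δ and μ receptors, dynorphins from *Pdyn* on κ receptors, β-endorphin from *Pomc* on μ receptors, and nociceptin from *Pnoc* on the related nociceptin receptor. In the medulla and pons, enkephalin, dynorphin, and nociceptin neurons belong to circuits of pain control, breathing, and autonomic output, while *Pomc* neurons sit chiefly in the hypothalamus and a small group in the nucleus of the solitary tract. Morphine is an agonist of the μ receptor, and the comparisons of the study ask what repeated exposure and its withdrawal leave behind in the transcriptome, and whether the sexes differ.

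The coding sequences below show what separates the precursors, since each holds the opioid core in a different number and form. They were read from the GENCODE M21 transcripts on GRCm38, each on the strand of its gene, and the capitals mark the 15 bases of the core, with 6 bases on either side. The *Penk* transcript encodes 268 residues with 6 Met-enkephalin cores, not all of them followed by a pair of basic residues, and 1 Leu-enkephalin core. The *Pdyn* transcript encodes 248 residues with 3 Leu-enkephalin cores, each the start of a dynorphin or neoendorphin peptide. The *Pomc* transcript encodes 235 residues with 1 Met-enkephalin core, the start of β-endorphin. The *Pnoc* transcript encodes 187 residues with 1 nociceptin, whose first residue is phenylalanine where the other precursors have tyrosine. In each of the 12 cores, the 2 codons before the capitals encode a pair of basic residues, where processing enzymes cut.
Penk Met-enkephalin 1 (chr4:4134328-4134354, minus strand): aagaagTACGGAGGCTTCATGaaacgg
Penk Leu-enkephalin (chr4:4133935-4133961, minus strand): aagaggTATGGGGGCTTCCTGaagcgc
Pdyn Leu-enkephalin core 1 (chr2:129688232-129688258, minus strand): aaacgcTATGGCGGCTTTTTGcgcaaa
Pomc Met-enkephalin core (chr12:3960367-3960393, plus strand): aagcgtTACGGTGGCTTCATGacctcc
Pnoc nociceptin start (chr14:65404872-65404898, minus strand): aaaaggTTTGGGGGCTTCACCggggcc

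The libraries held 27850565 to 48097947 counts on genes. The labels give brainstem, although the deposited extraction text names spinal cord. The 10 hindbrain and brainstem markers summed to 562 to 732 CPM in each library, and 6 of the 8 thoracic and lumbar *Hox* genes had means under 0.1 CPM. The libraries differed in how their counts followed GC content. The GC trend, the slope of a library's deviation from the mean on the GC content of the genes, was 0.43 and 0.55 log2 units per 10 points of GC in saline males 1 and 2, -0.54 in saline male 3, and -0.31 to 0.26 in the other 9. The library labelled morphine male 6 had *Xist*, normally expressed in females, at 379.9 CPM, against at most 2.71 CPM in the other males, and its Y-linked *Ddx3y* was at 12.8 CPM, against 118 to 199 CPM in those males. Skeletal muscle markers summed to 30.4 CPM in saline male 2 and to 1.29 to 5.80 CPM elsewhere, and their part in the results below was not tested. Member results are given with and without these libraries where leaving them out changes a call or a direction.

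*Penk* was by far the most abundant of the 4 genes. Levels between genes are compared in CPM per kb of exon, where CPM is the usual count of a gene relative to its library's total, here after TMM normalization. *Penk* averaged 59.7 ± 8.42 CPM per kb (SD, n = 12), *Pnoc* 3.35 ± 1.47, *Pdyn* 2.22 ± 0.291, and *Pomc* 0.249 ± 0.261. *Penk* was first and *Pomc* last in all 12 libraries. *Pnoc* lay above *Pdyn* in 9 of the 12 but below it in saline male 3, saline female 5, and saline female 6, so these neighbors did not differ beyond their spread. Of the 18608 genes that passed the filter on low counts in the sex-combined fit, 96.8% were lower per kb than *Penk*, 51.6% lower than *Pnoc*, 43.4% lower than *Pdyn*, and 10.9% lower than *Pomc*. All 4 members passed this filter.

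Set among 20 other neuropeptide precursors, *Penk* ranked 1st of 24 on the per kb scale. The next was *Sst*, which encodes somatostatin, at 42.1 CPM per kb, followed by *Nts*, the neurotensin precursor, at 12.9. *Pnoc* ranked 13, just below the cholecystokinin gene *Cck* at 4.21 CPM per kb, and *Pdyn* ranked 17, just above the neuromedin B gene *Nmb* at 1.62. *Pomc* ranked 23, above only *Ucn*, the urocortin precursor, at 0.0234. Tissue near the brainstem can also carry these genes, so markers of other regions were read in the same libraries. Of the 9 pituitary endocrine markers, 8 had means under 0.1 CPM, including the corticotroph factor *Tbx19* at no more than 0.0615 CPM in any library. The exception, *Tshb*, lay at 6.61 to 10.1 CPM. Of the 7 hypothalamic markers, 4 had means under 0.1 CPM, and *Agrp* lay at 0.273 to 0.797 CPM. The 7 genes of the striatal list were all detected and summed to 105 to 138 CPM.

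**Figure D1:**
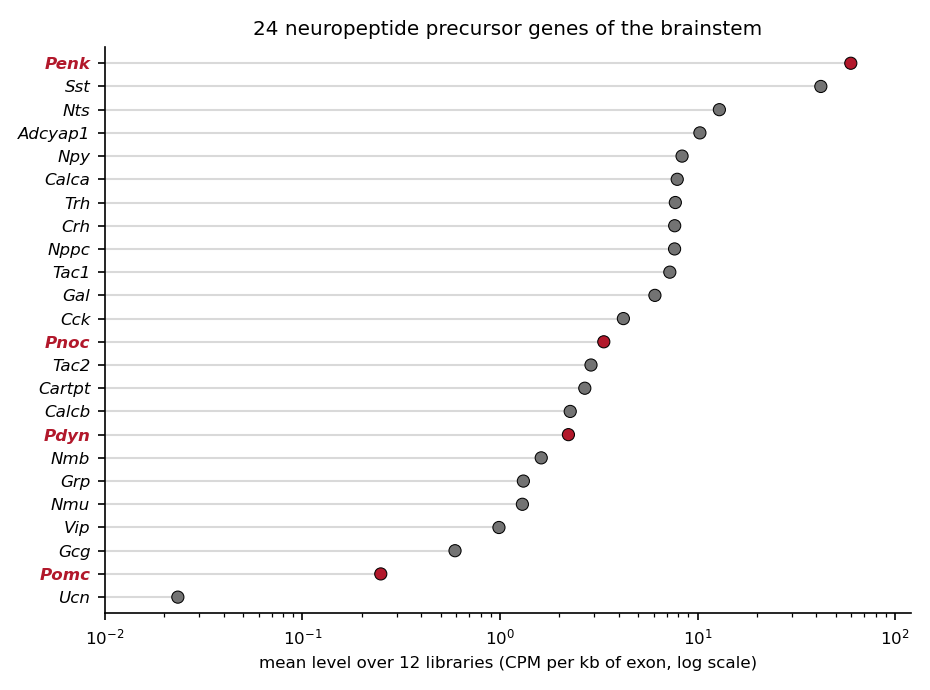
Mean level of 24 neuropeptide precursor genes over the 12 libraries, in CPM per kb of exon on a log axis, with the 4 opioid precursors in red. *Penk* stands first at 59.7, *Pnoc* and *Pdyn* lie in the lower middle at 3.35 and 2.22, and *Pomc* is next to last at 0.249.

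*Penk* (ENSMUSG00000045573, chromosome 4, 4133531 to 4138819, minus strand) encodes the main source of enkephalins. Its levels were 117, 96.8, and 77.4 CPM in saline females 4, 5, and 6, and 88.4, 96.4, and 118 CPM in morphine females 1, 2, and 3. In saline males 1, 2, and 3 they were 104, 111, and 76.8 CPM, and in morphine males 4, 5, and 6 they were 95.1, 86.6, and 104 CPM. Each group spanned much of the same range, and saline male 3 and saline female 6 were the lowest. *Penk* shares 233 exon bases with the antisense gene A830012C17Rik, and a strand setting for the counting is not given in the sources used here. That gene had 0 to 6 counts per library, against 2507 to 5057 for *Penk*. After adjustment for GC content and transcript length, the CV of *Penk* over the 12 libraries was 7.38%, against 14.1% before, and among the 6 males it was 2.37%, against 13.1%.

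*Pdyn* (ENSMUSG00000027400, chromosome 2, 129686565 to 129699844, minus strand), the dynorphin precursor, varied as little as *Penk* before adjustment, with a CV of 13.1% (13.5% with scaling by total counts, where *Penk* had 13.0%). It lay at 6.24, 8.14, and 5.12 CPM in saline females 4, 5, and 6, and at 5.23, 7.00, and 6.90 CPM in morphine females 1, 2, and 3. Its levels were 6.02, 6.96, and 5.94 CPM for saline males 1, 2, and 3, and morphine males 4, 5, and 6 at 6.81, 5.93, and 6.61 CPM. The highest and the lowest value of all 12 were both in saline females. Saline males 1 and 2 did not stand apart for this gene.

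*Pnoc* (ENSMUSG00000045731, chromosome 14, 65400673 to 65425472, minus strand), the nociceptin precursor, varied much more, with a CV of 43.9%. The levels in saline males 1 and 2 were 14.1 and 12.5 CPM, and no other library exceeded 8.24 CPM. Saline male 3, of the same group, was at 4.17 CPM, among the lowest. Saline females 4, 5, and 6 were at 6.06, 5.26, and 3.79 CPM, and morphine females 1, 2, and 3 at 7.93, 5.74, and 7.63 CPM. Morphine males 4, 5, and 6 were at 5.65, 5.67, and 8.24 CPM. Thus 2 morphine females lay above all saline females, and morphine female 2 lay inside the saline range. After adjustment for GC content and length, saline males 1 and 2 were still the highest, with 13.3 and 11.4 CPM, against at most 8.07 CPM elsewhere.

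Genes of inhibitory neurons, a class that includes many *Pnoc* neurons, did not move together in these libraries. *Slc32a1*, the vesicular GABA transporter, was at 99.3 and 107 CPM in saline males 1 and 2 and at 30.5 to 64.4 CPM in the other 10. *Gad1*, a GABA-synthesizing enzyme, was at 180 and 176 CPM in saline males 1 and 2, the lowest of the 12, and reached 236 CPM elsewhere. *Slc6a5* (485 and 479 CPM) was also lowest there. *Gad2* was at 211 and 185 CPM in them, with the library labelled morphine male 6 in between at 208 CPM. In saline male 3, with the opposite GC trend, *Slc32a1* was lowest (30.5 CPM) and *Gad2* highest (308 CPM). The GC content was 61.9% for *Slc32a1*, 47.3% for *Gad1*, 44.1% for *Gad2*, and 48.2% for *Slc6a5*. The part of GC content in this split was not tested. The 4 genes of the list summed to 976 and 948 CPM in saline males 1 and 2 and to 975 to 1138 CPM in the other 10. The part of cell composition in the *Pnoc* levels was not tested, and in bulk tissue fewer cells of a type and less RNA per cell cannot be told apart.

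*Pomc* (ENSMUSG00000020660, chromosome 12, 3954951 to 3960642, plus strand), the precursor of β-endorphin and the melanocortins, was close to the limit of detection, with 145 counts over all libraries. Saline males 1 and 2 held 25 and 56 of them, and the other 10 libraries had 1 to 14 each. The levels were 0.745, 1.23, and 0.276 CPM in saline males 1, 2, and 3 and 0.0297, 0.393, and 0.413 CPM in morphine males 4, 5, and 6. Saline females 4, 5, and 6 were at 0.233, 0.152, and 0.0849 CPM, and morphine females 1, 2, and 3 at 0.154, 0.0865, and 0.147 CPM. All 6 females lay below 5 of the 6 males, and morphine male 4, with 1 count, was the lowest library of all. The GC content of *Pomc*, 59.2%, was higher than that of 94.5% of the genes tested.

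**Figure D2:**
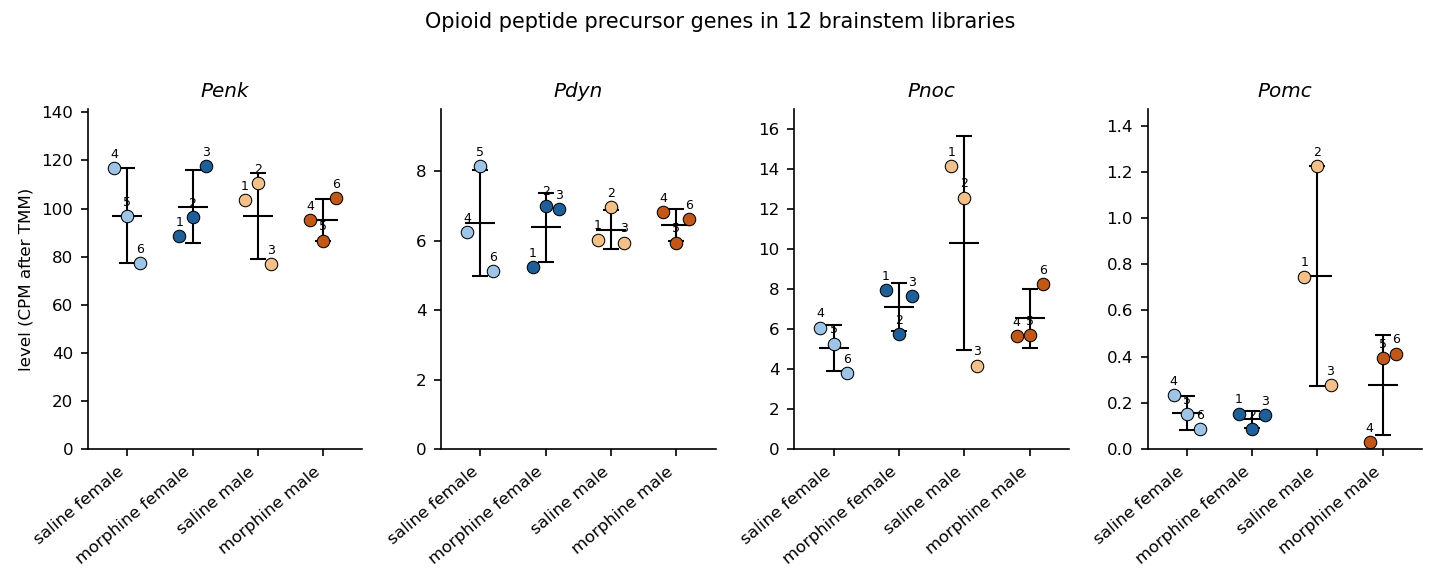
Levels of *Penk*, *Pdyn*, *Pnoc*, and *Pomc* in CPM after TMM normalization, each panel with its own axis from 0. Points are libraries with their label numbers, and bars are the group mean and SD (n = 3). *Penk* and *Pdyn* groups lie on each other, saline males 1 and 2 stand above all other libraries for *Pnoc* (14.1 and 12.5) and *Pomc* (0.745 and 1.23), and morphine females lie above saline females for *Pnoc* with overlap.

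In the sex-combined comparison of morphine with saline mice, no member passed, and the fitted values of *Penk* and *Pdyn* were close to 0. A gene passed when its unadjusted p in edgeR's quasi-likelihood test was under 0.05 and its absolute log2 fold change was over 0.26, the thresholds of the study, and 1.19% of the 18608 genes tested did so. Morphine mice averaged 98.1 ± 11.5 CPM of *Penk* and saline mice 97.0 ± 16.8 CPM (SD, n = 6 each). The log2 fold change was 0.03 (SE 0.12), with a 95% confidence interval of -0.23 to 0.28. *Pdyn* averaged 6.41 ± 0.695 CPM against 6.40 ± 1.04 CPM (SD, n = 6 each), with a log2 fold change of 0.01 (95% confidence interval -0.27 to 0.30). For *Pnoc* the log2 fold change was -0.08, with a wider interval of -0.72 to 0.57, and it combines a positive value in females with a negative one in males, given below. *Pomc* averaged 0.204 ± 0.161 CPM with morphine against 0.453 ± 0.444 CPM with saline (SD, n = 6 each). This log2 fold change of -1.01 (SE 0.53, unadjusted p = 0.077 in edgeR's quasi-likelihood test) did not pass, and neither did its exact permutation test within sex (two-sided p = 0.205, where the smallest possible is 0.005).

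Saline males 1 and 2 set the direction for *Pnoc* in this comparison. They had the highest *Pnoc* levels of all libraries (14.1 and 12.5 CPM), so leaving them out lowers the saline mean whatever the treatment does. A p from a fit without them is therefore no separate evidence of a difference. Without both of them, a choice made after the data were seen, *Pnoc* was higher in morphine mice by 0.55 (unadjusted p = 0.00854, adjusted p = 0.359 in edgeR's quasi-likelihood test), in a fit where 11.7% of all genes passed. *Pomc* was then -0.16. Without saline male 3 instead, *Pomc* passed at -1.23 (unadjusted p = 0.0339), where 2.42% of all genes did. *Penk* and *Pdyn* passed under none of 94 alternative settings each, taken over the 5 comparisons. In each comparison these include p alone, which drops the fold change threshold and reuses the main fit. The values ran from -0.24 to 0.28 for *Penk* and from -0.17 to 0.19 for *Pdyn*, whose smallest unadjusted p was 0.415.

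In females, *Pnoc* was higher in morphine mice and was the 1 member of the 3 tested that passed, where 1.81% of the 18109 genes did. Morphine females averaged 7.10 ± 1.19 CPM against 5.04 ± 1.15 CPM with saline (SD, n = 3 each). This gave a log2 fold change of 0.49 (SE 0.20, 95% confidence interval 0.04 to 0.94, unadjusted p = 0.0367), and the adjusted p in edgeR's quasi-likelihood test was 1. The groups overlapped, and the exact permutation p was 0.2 (two-sided), where 3 mice against 3 allow no less than 0.1. With offsets for GC content and length the value was 0.45 (unadjusted p = 0.0238 in edgeR's quasi-likelihood test). It lost the call without saline female 5, saline female 6, morphine female 1, or morphine female 3, at values of 0.33 to 0.53, and kept it without saline female 4 or morphine female 2, fits in which 7.95% and 3.73% of all genes passed. The 8 meningeal fibroblast markers summed to 106 and 97.1 CPM in morphine females 1 and 3, the morphine females with the higher *Pnoc*, to 190.0 CPM in morphine female 2, and to 165 to 255 CPM in the saline females, and their part in the *Pnoc* difference was not tested. The contrast from the fit of all 12 libraries gave 0.50 (unadjusted p = 0.201), and the call was lost there.

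*Penk* and *Pdyn* were level between the female groups. *Penk* averaged 101 ± 15.1 CPM with morphine against 97.0 ± 19.8 CPM with saline (SD, n = 3 each), with a log2 fold change of 0.05 (95% confidence interval -0.28 to 0.39). *Pdyn* averaged 6.38 ± 0.997 CPM against 6.50 ± 1.53 CPM (SD, n = 3 each), with -0.03 (95% confidence interval -0.48 to 0.42). *Pomc*, with 3 to 8 counts per female library, did not pass the filter on low counts in females and was not tested. Its means were 0.129 ± 0.0370 CPM in morphine females and 0.157 ± 0.0742 CPM in saline females (SD, n = 3 each).

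In males no member passed, where 2.99% of the 18166 genes did. *Pnoc* averaged 6.52 ± 1.49 CPM with morphine against 10.3 ± 5.35 CPM with saline (SD, n = 3 each), and its log2 fold change of -0.66 had a 95% confidence interval of -1.69 to 0.38. The 3 saline males straddled the morphine males, with 2 above and 1 below. Without saline male 3 the value was -0.99 and passed (adjusted p = 0.0206 in edgeR's quasi-likelihood test), but 28.6% of all genes passed in that fit and 2141 had an adjusted p under 0.05, so the call is not particular to *Pnoc*. Without both saline males 1 and 2 it was 0.62 (unadjusted p = 0.0734), with saline male 3 the only saline male left and assumed to vary like the other group. *Pomc* averaged 0.279 ± 0.216 CPM against 0.749 ± 0.475 CPM (SD, n = 3 each), with a log2 fold change of -1.45 (SE 0.78, unadjusted p = 0.105 in edgeR's quasi-likelihood test). It was -1.80 and passed in the same fit without saline male 3, and it was -0.02 without both saline males 1 and 2. *Penk* had a log2 fold change of -0.03 (95% confidence interval -0.42 to 0.36) and *Pdyn* of 0.03 (-0.38 to 0.43).

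In the interaction, *Pnoc* alone among the 4 tested members passed, where 2.94% of 19027 genes did. The interaction (the male change minus the female one) had a log2 value of -1.13 for *Pnoc* (SE 0.52, 95% confidence interval -2.26 to -0.01, unadjusted p = 0.0483), with an adjusted p of 0.985 in edgeR's quasi-likelihood test. Without both saline males 1 and 2 it was 0.15 (unadjusted p = 0.693), and without saline male 3 it was -1.52 (adjusted p = 0.0106 in edgeR's quasi-likelihood test), where 24.1% of all genes passed. The call was kept in 4 of the 12 fits that each omitted a library (saline male 3, saline female 4, morphine female 2, or the library labelled morphine male 6, the last at -1.34) and lost in the other 8. Among the latter were saline male 1 (-0.83, unadjusted p = 0.135) and saline male 2 (-0.98, unadjusted p = 0.102). For *Pomc* the interaction was of similar size, at -1.14, with a wider 95% confidence interval of -3.56 to 1.28, and it was -0.59 without saline male 2. For *Penk* it was -0.06 (-0.60 to 0.47) and for *Pdyn* 0.08 (-0.52 to 0.67).

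**Figure D3:**
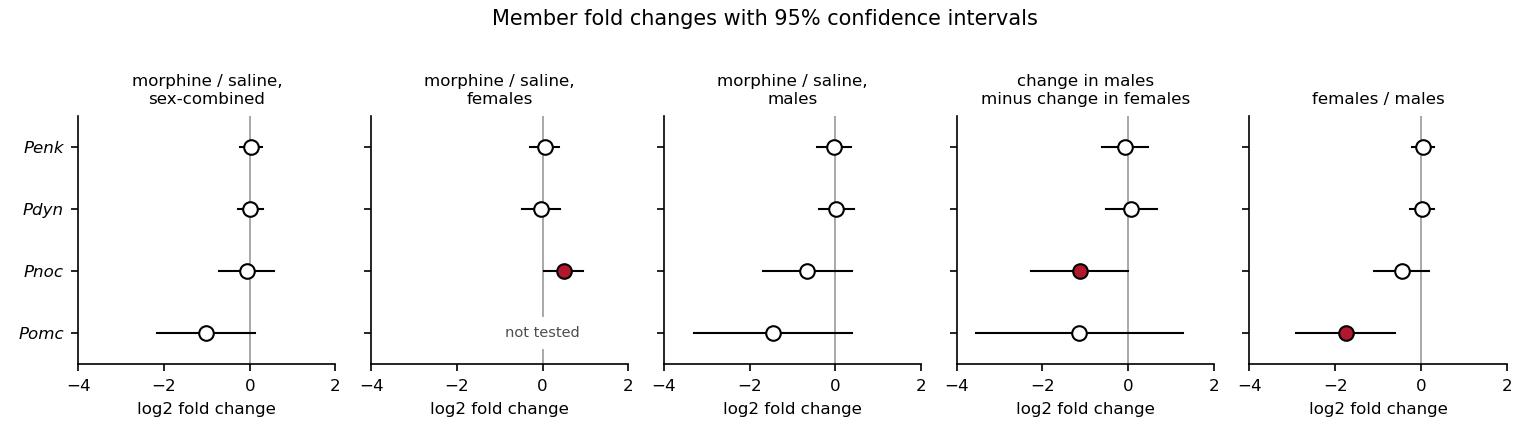
Log2 fold changes (x axis) of the 4 genes in the 5 comparisons, with 95% confidence intervals as lines. Filled points passed both thresholds, which were *Pnoc* in females (0.49), *Pnoc* in the interaction (-1.13), and *Pomc* between the sexes (-1.75).

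**Figure D4:**
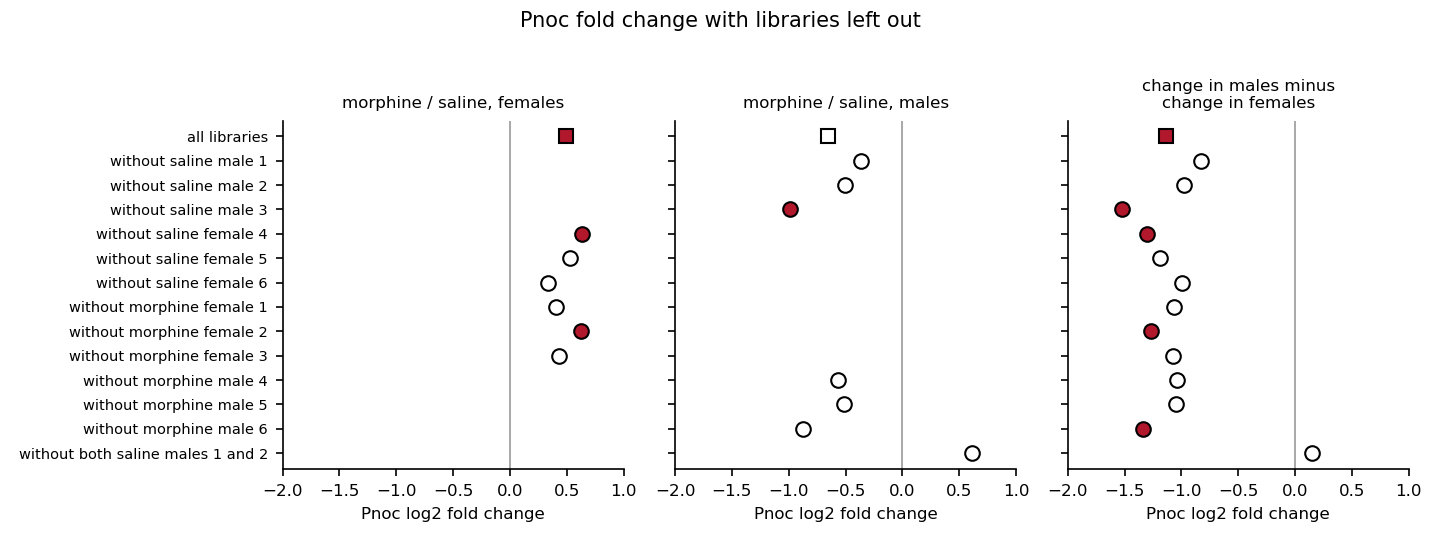
*Pnoc* log2 fold change (x axis) with all libraries (squares) and with libraries left out (circles), in females, in males, and as the difference between the sexes. Filled symbols passed both thresholds. The female values stay above 0 (0.33 to 0.64), while the male value moves from -0.99 without saline male 3 to 0.62 without both saline males 1 and 2.

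Between the sexes, *Pomc* was lower in females and was the 1 member of 4 that passed, where 3.94% of the genes did. It was at 0.143 ± 0.0546 CPM (SD, n = 6) in females and 0.514 ± 0.418 CPM (SD, n = 6) in males. The log2 fold change was -1.75 (SE 0.54, 95% confidence interval -2.91 to -0.60, unadjusted p = 0.00596), with an adjusted p of 0.734 in edgeR's quasi-likelihood test. The exact permutation test within treatment gave p = 0.045 (two-sided). It passed whichever 1 of the 12 libraries was left out, from -1.99 to -1.40, with -1.67 when the library labelled morphine male 6 was the one, and with offsets for GC content and length (-1.32). Without both saline males 1 and 2 it was -0.98 and did not pass (unadjusted p = 0.113 in edgeR's quasi-likelihood test). *Pnoc* was at 6.07 ± 1.54 CPM in females and 8.40 ± 4.07 CPM in males (SD, n = 6 each). The log2 fold change was -0.44 (unadjusted p = 0.16 in edgeR's quasi-likelihood test) and 0.17 without both saline males 1 and 2. Without saline male 3 it was -0.59 and passed (unadjusted p = 0.0443 in edgeR's quasi-likelihood test), where 20.9% of all genes did. *Penk* and *Pdyn* differed by 0.05 (95% confidence interval -0.20 to 0.31) and 0.02 (-0.26 to 0.31).

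The groups overlapped for every member in every comparison of groups. Of all genes tested, the groups did not overlap for 0.043% in the sex-combined comparison, 5.65% in females, 9.1% in males, and 0.129% between the sexes.

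The members differed in how closely they followed the GC trend of the libraries. These 4 relations were chosen after the data were seen, and their p values are adjusted over the 4 members only. The trend is itself computed from the genes of these libraries, and r over all genes is not given. The p values therefore cannot show that following the trend is particular to a member. For *Pnoc*, Pearson's r of log2(CPM + 1) with the GC trend was 0.925 (permutation p = 4e-05, adjusted p = 0.00016) and Spearman's rho was 0.909 (permutation p = 0.00012, adjusted p = 0.00048) over the 12 libraries. It was 0.922 without saline males 2 and 3, the libraries with the largest trends, and 0.84 without saline males 1 and 2. With the *Pnoc* values adjusted for GC content and length, r was still 0.875. For *Penk*, r was 0.721 (permutation p = 0.00774, adjusted p = 0.0103) and rho 0.797 (permutation p = 0.00286, adjusted p = 0.00572), and r was -0.116 after the adjustment. For *Pomc*, r was 0.73 (permutation p = 0.00736, adjusted p = 0.0103) but rho was 0.497 (permutation p = 0.103, adjusted p = 0.137), and r was 0.164 without saline males 1 and 2. *Pdyn* showed no such relation, with r at 0.262 (permutation p = 0.412, adjusted p = 0.412) and rho at 0.308 (permutation p = 0.331, adjusted p = 0.331). What sets the GC trend was not tested.

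**Figure D5:**
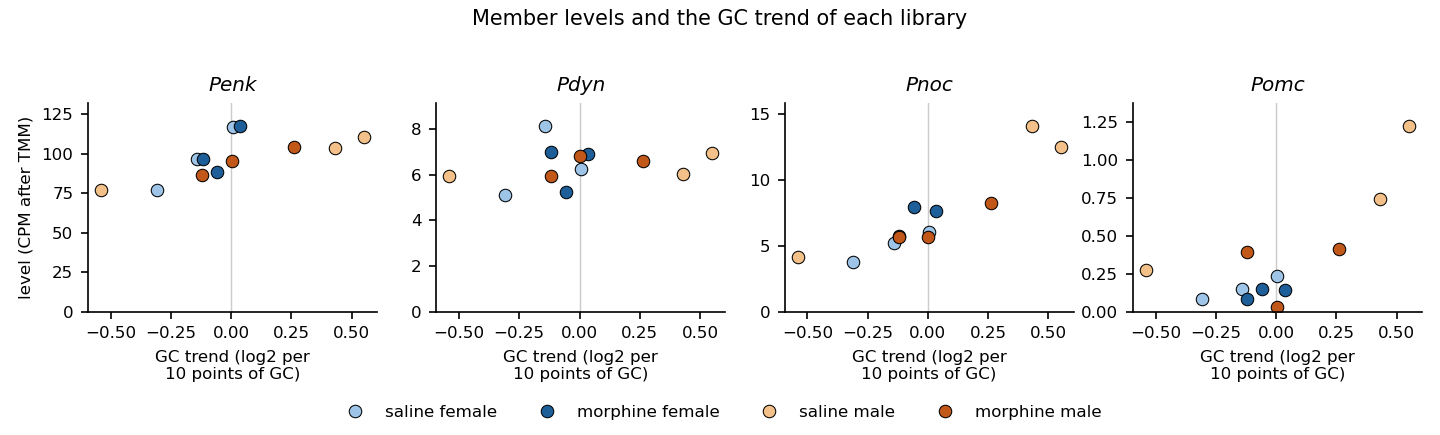
Level of each gene in CPM after TMM normalization (y axis, from 0) against the GC trend of the library (x axis, log2 units per 10 points of GC), with points colored by group. *Pnoc* climbs with the trend across all groups up to saline males 1 and 2, *Pdyn* does not, and *Pomc* is high at the right end.

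Among the 6 pairs of members, *Pnoc* and *Pomc* had the highest Pearson's r over the 12 libraries, at 0.763 (permutation p = 0.00488, adjusted p = 0.0293) while rho was 0.643 (permutation p = 0.0281, adjusted p = 0.0843), below that of *Penk* and *Pnoc*. The relation rested on saline males 1 and 2, without which r was 0.257 (permutation p = 0.47). *Penk* and *Pnoc* had an r of 0.626 (permutation p = 0.0291, adjusted p = 0.0874) and a rho of 0.657 (permutation p = 0.0244, adjusted p = 0.0843). For this pair r was 0.758 after the group means were removed, 0.347 without saline female 6 and saline male 3, and -0.254 after adjustment for GC content and length. *Penk* and *Pdyn* had an r of 0.534 (permutation p = 0.0742, adjusted p = 0.148) and a rho of 0.58 (permutation p = 0.051, adjusted p = 0.102), which did not pass, and r was 0.489 after that adjustment and 0.296 without saline female 6 and saline male 3. The other 3 pairs had r between 0.065 and 0.327, with adjusted p of 0.46 or more.

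The genes whose levels followed each member most closely over the 12 libraries were found among 13482 named genes with a mean of at least 1 CPM. Genes share libraries and depth, so these values are a description. For *Penk* they were *Pes1*, *P4hb*, *Prkaca*, *Dhdds*, and *Ppp1ca*, with r from 0.959 to 0.977. None encodes a neuropeptide, and *Prkaca* and *Ppp1ca* encode catalytic subunits of protein kinase A and protein phosphatase 1. After adjustment for GC content and length, their r with *Penk* was 0.57 to 0.699. For *Pdyn* they were *Vmac*, *Inca1*, *Rsu1*, *Mgat3*, and *Rfx4*, with lower values of 0.804 to 0.844, and 0.173 (*Rsu1*) to 0.869 (*Rfx4*) after adjustment. For *Pnoc* they were *Mcrip1*, *Atp5g1*, *Mrpl41*, *Adrm1*, and *Uqcr11*, with r from 0.987 to 0.988, 0.964 or more after adjustment, and 0.963 to 0.981 without saline males 1 and 2. *Atp5g1* and *Uqcr11* encode mitochondrial respiratory proteins and *Mrpl41* a mitochondrial ribosomal protein. Saline males 1 and 2 were the highest libraries for all 5, as they were for *Pnoc*, for example *Uqcr11* at 89.3 and 101 CPM against at most 34.3 CPM elsewhere. For *Pomc*, among 13483 genes, they were *Ftl1-ps1*, *Sh3bp1*, *Hspa2*, *Hexim1*, and *Cbr2*, with r from 0.926 to 0.951, and again saline males 1 and 2 were the highest for all 5. Without both, their r was 0.569 to 0.811. *Ftl1-ps1* is a pseudogene of a ferritin gene, so its counts are uncertain.

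The receptors for these peptides did not pass in any comparison. *Oprm1*, the μ receptor on which morphine acts, lay at 2.17 to 4.79 CPM and had a log2 fold change of 0.12 (SE 0.24) with morphine in the sex-combined comparison. *Oprd1*, the δ receptor, lay at 9.32 to 13.5 CPM (-0.02, SE 0.10), *Oprk1*, the κ receptor, at 10.9 to 18.0 CPM (-0.02, SE 0.13), and *Oprl1*, the nociceptin receptor, at 83.5 to 98.8 CPM (0.05, SE 0.07). In females, where *Pnoc* passed, the log2 fold change of *Oprl1* was 0.03 (SE 0.09). *Oprl1* did not follow *Pnoc* into saline males 1 and 2, where it was at 95.5 and 86.6 CPM. The 4 receptors together summed to 112 to 132 CPM per library.

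Of the 12 genes that process the precursors, 2 passed in males, where 2.99% of all genes did, and 0 in females or in the sex-combined comparison. Their median log2 fold change in males was -0.05, against -0.06 over all genes. *Pcsk1n*, which encodes proSAAS, an inhibitor of a prohormone convertase, was lower in morphine males by -1.83 (SE 0.67), and its interaction of -2.16 (SE 0.77) passed as well. Its level was 42.2 and 58.1 CPM in saline males 1 and 2 and 5.41 to 13.0 CPM in the other 10 libraries, and without both its value was 0.53 in males and 0.22 in the interaction, and neither passed. *Scg5*, which encodes the chaperone 7B2 of a convertase, was lower in morphine males by -0.30 (SE 0.11), and it did not pass with scaling by total counts (-0.17) or without the library labelled morphine male 6 (-0.32). *Furin*, a convertase of the constitutive secretory pathway, was lower in females than in males by -0.59 (SE 0.27) and was -0.03 without both saline males 1 and 2. The convertases *Pcsk1* and *Pcsk2*, which cut opioid precursors in vesicles, lay at 26.9 to 40.1 and 122 to 143 CPM and passed in no comparison. Of the 7 genes of granins and dense-core vesicles, which store these peptides, 0 passed in any comparison.

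Of the 9 genes for breakdown or scavenging of opioid peptides, 1 passed in males, where 2.99% of all genes did, and 0 in females. *Ece2*, an endothelin-converting enzyme that can cleave opioid peptides, was higher in morphine males by 0.66 (SE 0.19), with 6.48 to 7.51 CPM in morphine males and 3.61 to 4.84 CPM in saline males. Its interaction was 0.94 (SE 0.31), and without the library labelled morphine male 6 the values were 0.68 and 0.98. Without both saline males 1 and 2, which left 1 saline male and a fit where 31.1% of all genes passed, it was 0.58 in males, and it was 0.87 in the interaction. The 6 cerebellar granule cell markers summed to 52.3 to 95.5 CPM in morphine males and to 42.0 to 42.6 CPM in saline males without overlap, and to 31.4 to 53.2 CPM in females, and their part in the male differences was not tested. *Anpep* (-0.30) and *Ace* (-0.37), both peptidases, were lower in females than in males, and neither passed with offsets for GC content and length (-0.20 and -0.17). *Mme*, or neprilysin, the classic enkephalinase, lay at 15.9 to 30.8 CPM and passed in no comparison. *Ackr3*, a scavenger of opioid peptides, lay at 9.77 to 15.2 CPM and also passed in none.

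Among the 20 other neuropeptide precursors, of which 19 were tested, 1 passed in the sex-combined comparison, 0 in females, and 3 in males. Of all genes, 1.19%, 1.81%, and 2.99% passed in these comparisons. *Nmb*, the neuromedin B precursor, was higher in morphine mice by 0.56 (SE 0.20) in the sex-combined comparison and by 0.87 (SE 0.29) in males. *Gal*, the galanin precursor, was lower in morphine males by -0.83 (SE 0.30), and *Nppc*, the precursor of C-type natriuretic peptide, by -0.54 (SE 0.23). *Sst* (-0.83) and *Gal* (-0.90) passed in the interaction, and *Nmu*, the neuromedin U precursor, was higher in females than in males by 0.48 (SE 0.21). Without both saline males 1 and 2, none of these passed, with *Nmb* at 0.94 and *Gal* at -0.42 in males. Without the library labelled morphine male 6, *Nmb* (0.81) and *Nppc* (-0.56) did not pass in males, while *Gal* (-1.09) did. In females the median of the 19 genes was 0.10, against -0.01 over all genes, with 14 of them above 0. In males it was -0.28, against -0.06 over all genes, with 18 of 19 below 0. *Pnoc* had the same signs as these medians in both sexes, while *Penk* and *Pdyn* lay between -0.03 and 0.05. Over all genes tested, 48.2% were above 0 in females and 37.6% in males. Saline males 1 and 2 were the highest libraries for *Sst*, *Gal*, *Cck*, *Nppc*, *Cartpt*, and *Calcb* and the lowest for *Adcyap1*. The male median and count are not given without these libraries. The list genes named as passing had adjusted p of 0.734 or more in edgeR's quasi-likelihood test.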

How the data were processed

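The authors sequenced poly-A RNA from 12 brainstems on 1 lane. Per their notes, Trimmomatic trimmed the reads, STAR placed them on mm10, and featureCounts, run through scruff, summed them over exons of Ensembl GRCm38 genes. The authors deposited raw counts per gene, without normalization. Tool versions and the strand setting are not given in the sources used here, and no label gives the dam. The members and gene lists were chosen with earlier results of these data known. All 55418 symbols were found in GENCODE M21.

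Tests used edgeR 4.0.16 in R 4.3.3 (quasi-likelihood test, TMM, filterByExpr). Morphine was compared with saline with a term for sex, within each sex, and as an interaction, and the sexes were compared with a term for treatment. A call needed both an absolute log2 fold change above 0.26 and an unadjusted p below 0.05. Adjusted p values are Benjamini-Hochberg over all genes tested. Adjustment for GC content and length used loess (span 0.5) per library. Correlations were computed on log2(CPM + 1) with 100000 permutations. Alternatives included DESeq2 1.42.0, other scalings and filters, and leaving out each library. Genes named were the members, list genes that passed or give a level, and the 5 most similar named genes per member. The fits were tested on simulated data.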

Additional observations from a re-analysis of the deposited data

Results flagged for a closer look

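*Pnoc* passed in the interaction test, with a log2 value of -1.13 (the male change minus the female one, unadjusted p = 0.0483, adjusted p = 0.985 in edgeR's quasi-likelihood test). The value was 0.15 without both saline males 1 and 2. Of the 3 morphine females, 2 were above all 3 saline females, while 2 of the 3 saline males were above all 3 morphine males and saline male 3 was below them. Dixon's test on the groups of 6 marked no library for the 4 genes, but it looks for a single library and cannot mark saline males 1 and 2, which stand high together for *Pnoc*.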

How the results depend on the processing

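*Penk* and *Pdyn* passed under none of their alternatives. For *Pnoc* in females, 8 of 9 alternatives other than leaving out a library kept the call, the exception being the fit of all 12 libraries (0.4962). The 8 include p alone, which reuses the main fit without the fold change threshold and could not lose the call. In the interaction, *Pnoc* lost its call with scaling by total counts (-1.0331) and with at least 10 counts in every library (-1.1163). In both cases 0 members passed, while 3.68% and 2.57% of all genes did. *Pomc* passed without a filter on low counts in the sex-combined comparison (-1.0113) and in males (-1.4579). Thus 1 member passed in each, as did 2.01% and 2.83% of all genes. *Pomc* could not be tested with at least 10 counts in every library, where 0 members and 3.69% of all genes passed between the sexes. Without both saline males 1 and 2, a setting added after the data were seen, *Pnoc* reversed to 0.5462 sex-combined (1 member passed, as did 11.7% of all genes), 0.6152 in males, 0.1535 in the interaction (0 passed), and 0.1722 between the sexes (0 passed). *Pomc* reversed to 0.2925 in the interaction and was -0.9845 between the sexes, and *Penk* reversed to 0.2798 in males and 0.2577 in the interaction. Values near 0 also changed sign. With scaling by total counts, which moved the median of all genes in males from -0.0639 to 0.0614, *Penk* was 0.0957 in males and 0.037 in the interaction. With offsets for GC content and length, also added later, *Pdyn* was -0.0321 sex-combined and -0.028 in males, and *Penk* was -0.0325 in females and 0.0418 in the interaction. The cause of these changes was not tested. The relations between members moved as well. After adjustment for GC content and length, r was -0.254 for *Penk* and *Pnoc*, -0.238 for *Penk* and *Pomc*, -0.362 for *Pdyn* and *Pnoc*, -0.101 for *Pdyn* and *Pomc*, and 0.507 for *Pnoc* and *Pomc*. Without the 2 libraries farthest from the median, r was 0.347 for *Penk* and *Pnoc* and 0.257 for *Pnoc* and *Pomc*, and with group means removed it was 0.59 for *Penk* and *Pomc*.

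Leaving out 1 library at a time gave these ranges. Sex-combined, *Penk* ran from -0.0538 to 0.0896, *Pdyn* from -0.0643 to 0.1038, *Pnoc* from -0.2349 to 0.1173, and *Pomc* from -1.2329 to -0.618. In females, *Penk* ran from -0.0756 to 0.1983, *Pdyn* from -0.1664 to 0.1667, and *Pnoc* from 0.3326 to 0.6358. In males, *Penk* ran from -0.1318 to 0.0903, *Pdyn* from -0.0145 to 0.1376, *Pnoc* from -0.9928 to -0.3608, and *Pomc* from -1.8743 to -0.891. In the interaction, *Penk* ran from -0.235 to 0.0643, *Pdyn* from -0.1427 to 0.1894, *Pnoc* from -1.5232 to -0.8303 (passing in 4 of 12), and *Pomc* from -1.5528 to -0.5864. Between the sexes, *Penk* ran from -0.0358 to 0.0964, *Pdyn* from -0.068 to 0.0552, and *Pnoc* from -0.5947 to -0.2523.

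With the number as a replicate block, the sex-combined value was -0.8639 for *Pomc* and -0.0004 for *Pnoc*, and no member passed. Whether the numbers pair the mice is not known. Same-numbered libraries had correlated deviations of -0.529 to 0.215. These values cannot decide it, because the libraries also differed in GC trend and no label gives the dam. *Pomc*, with 1 to 56 counts per library, is the member most limited by depth.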
